A study of Glycine max with 16 samples.

Results

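LEAFY COTYLEDON1 (LEC1) regions found at early maturation and at no other stage were described in soybean embryos. They were chosen from 3 peak lists made by chromatin immunoprecipitation and sequencing (ChIP-seq) with an antibody raised against recombinant GmLEC1, a GST fusion of the soybean protein. The lists stand for the stages cotyledon (COT), early maturation (EM) and, last, mid-maturation (MM). Peaks that overlapped by at least 1 bp were joined, and a region was taken when it held an EM peak and neither a COT nor an MM peak. This gave 4503 EM-only regions of 78759 merged regions (5.72%). Each held 1 EM peak, so the regions are also 4503 of the 55140 EM peaks (8.17%). The rule used these 3 lists, so the number of EM-only regions, their score and their width are descriptions of what was chosen. Another list, made at EM with an antibody against a GmLEC1 peptide, was not used to choose them and is the independent readout.

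LEC1 is a seed-specific form of the B subunit of nuclear factor Y, the complex that recognises CCAAT sequences, and it acts with other subunits and with seed transcription factors. In plants it is needed for embryo identity and for the build-up of storage protein and oil during maturation. In soybean it is known to act on different sets of genes as the embryo passes from morphogenesis, through the onset of photosynthesis, to seed filling. Early maturation is the stage at which cell division gives way to storage.

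The embryos came from unmodified plants of cultivar Williams 82. EM embryos were dissected from seeds 6 to 7 mm long, COT embryos from seeds 2.5 to 3.5 mm long, and MM embryos from seeds of 200 to 250 mg. Each combination of stage and antibody had 2 biological replicates of ChIP and 2 of total chromatin (input), 16 libraries in all, and whole embryos with all their cell types were used. Each combination is represented by 1 peak list, so no spread between replicates could be measured and no difference below could be tested over samples. The 95% intervals are exact binomial (Clopper-Pearson) intervals that cover counting error only and treat regions as independent, which they are not. The number of reads behind each list is unknown. The lists hold positions and scores and no expression values, so the tissue could not be checked against marker genes. Positions are on the build named Gmax275 in the peak names, counted from 1. Its sequence and gene annotation were not used here, so regions are named by position and no gene is assigned to them.

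EM-only regions lay towards the weak end of the EM list, among shared peaks of like score. The score is the authors' own value for each peak, on a scale that is not given in the sources used here, and it served only to order peaks within a list. EM-only regions had a median score of 2.91, with a lowest value of 2.63 and a highest of 4.39, against a median of 3.64 and a highest of 6.899 for the EM peaks shared with another stage. None stood in the 2 highest-scoring deciles of the EM list (0 of 4503). The lowest-scoring 20% of the list held 2839 of them (63.0%), and the lowest-scoring 50% held 4385 (97.4%). The first EM-only region ranked 11249 in the EM list by score, and the median rank was 46942.

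They were also narrow. Widths come in steps of 50 bp, the spacing on which all peaks in the lists lie. Of the EM-only regions, 1518 were 100 bp wide, the least that any list held, and 1362 were 150 bp wide, so that 64.0% had one of these widths. Only 320 (7.11%) were 300 bp or wider, and the widest measured 550 bp. EM peaks shared with another stage had a median width of 350 bp. Within the EM-only regions, score and width went together, with a Spearman's rho of 0.752 across 4503 regions of 1 list. In all, EM-only regions covered 0.745 Mb, against 1.44 Mb for the 8134 COT-only regions and 2.49 Mb for the 11965 MM-only regions. COT-only regions had the same median width of 150 bp, and MM-only regions a median of 200 bp.

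**Figure D1:**
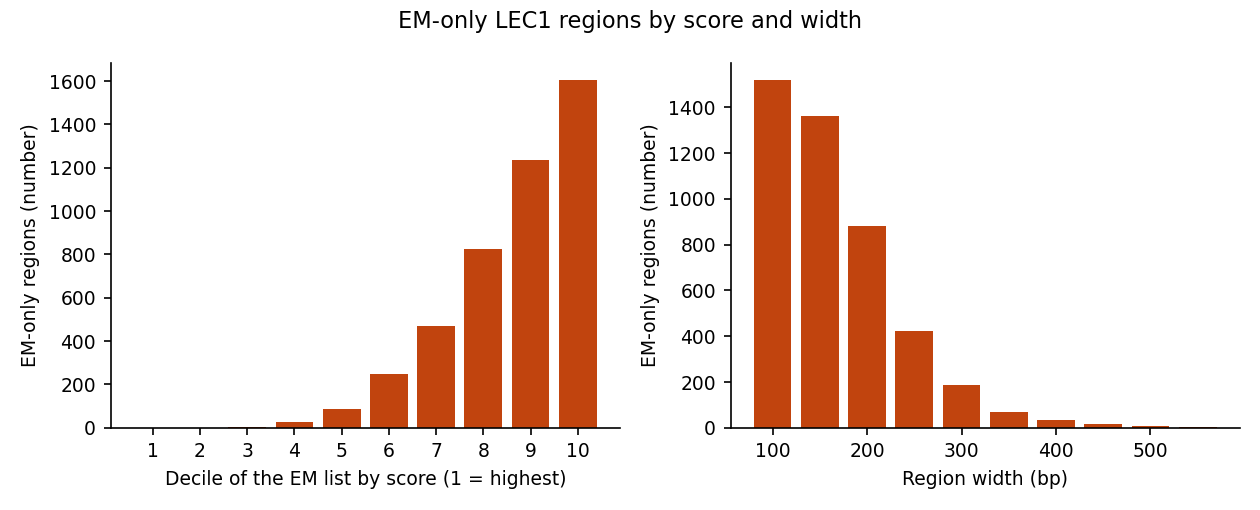
Number of EM-only regions (vertical axes) in each decile of the EM list by score, with 1 the highest (left), and at each region width in bp (right). Counts climb towards the lowest-scoring decile, which held 1603 regions, and towards the narrowest width of 100 bp, which held 1518.

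Most EM-only regions had no peak of the second antibody. An EM peptide-antibody peak overlapped 877 of the 4503 EM-only regions (19.5%, 95% interval 18.3 to 20.7), and 3626 had none. This share depended on the sharing rule and on the lists, at 38.5% with a reciprocal overlap of 50%, 37.4% with midpoints within 100 bp, 30.9% with lists of equal length and 39.8% of the 118 in the higher-scoring 50% of the EM list. Over all merged regions the share was 58.7%, and over all EM peaks 74.0%. The EM-only share was far below the 89.2% (88.9 to 89.5) of regions called at all 3 stages. It was also below the 58.8% (57.9 to 59.7) of regions called at EM and MM and the 38.9% (36.99 to 40.8) of those called at COT and EM.

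With any overlap counted and all widths kept, the share was about the same in EM-only and MM-only regions. It was 19.5% in EM-only regions, 14.2% (13.5 to 15.0) in COT-only regions and 19.6% (18.9 to 20.3) in MM-only regions. EM-only regions were thus above COT-only regions by 5.26 percentage points (3.89 to 6.66 by Newcombe's method). Set against MM-only regions, the difference was −0.0895 points (−1.43 to 1.29), an interval that spans 0. That near-equality was lost under some other rules. EM-only regions were higher by 8.90 points (7.67 to 10.1) under reciprocal overlap and by 10.6 (9.23 to 11.99) with midpoints within 100 bp. With peptide peaks within 200 bp they were higher by 3.18 (1.71 to 4.68). In 7 alternatives the difference stayed within the main interval, from −1.03 to 0.276 points, and in 6 it did not. With lists of equal length it was −0.00913 points (−1.70 to 1.69). EM-only exceeded COT-only regions on 19 of 20 chromosomes and MM-only regions on 6 of 20.

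Width moved with these shares, and MM-only regions were wider. The EM-only share was above both other classes in all 6 width bins, the last of which pools all widths from 350 bp. Within that bin, at 400 bp, it was 41.7% of 36 EM-only and 42.3% of 286 MM-only regions. At the other single widths up to 550 bp the EM-only share was the highest, in part from very few regions. For regions 100 bp wide it was 12.98% (11.3 to 14.8) in EM-only, 8.496% (7.41 to 9.68) in COT-only and 11.3% (10.1 to 12.7) in MM-only regions. At 200 bp the shares were 22.6% (19.8 to 25.5) in EM-only, 16.3% (14.5 to 18.2) in COT-only and 18.1% (16.6 to 19.7) in MM-only regions. Among the widest, from 350 bp, they were 46.2% (37.5 to 55.1) in EM-only, 27.8% (23.5 to 32.4) in COT-only and 37.5% (34.7 to 40.3) in MM-only regions. The EM-only interval lay wholly above the COT-only interval in 6 of 6 bins and above the MM-only interval in 3 of 6.

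Taken at the widths of the EM-only regions, the share was 13.5% in COT-only and 15.6% in MM-only regions. The EM-only share of 19.5% was then higher by 5.99 points than that of COT-only and by 3.83 points than that of MM-only regions. With 4 width bins per chromosome, EM-only exceeded COT-only regions on 20 of 20 chromosomes, by 0.141 to 11.5 points. It exceeded MM-only regions on 18 of 20, with differences from −2.11 to 8.996 points. The comparison at equal width was added after the values had been seen. Stage, ChIP experiment and depth of a list cannot be told apart in any of these differences.

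**Figure D2:**
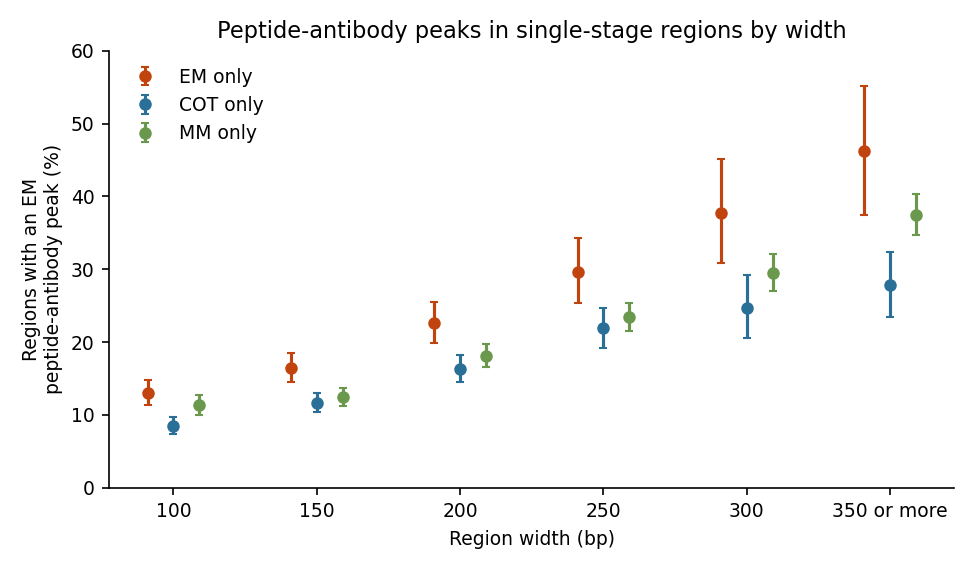
Share of regions with an EM peptide-antibody peak (vertical axis, %) by region width (horizontal axis, bp) for EM-only, COT-only and MM-only regions. Points are shares and bars their exact 95% binomial intervals. The EM-only points run from 12.98% at 100 bp to 46.2% from 350 bp. They lie above those of both other classes in each bin drawn, the last of which pools all widths from 350 bp.

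The share with a peptide peak was lower in EM-only regions than in other EM peaks of like score. In each of the 8 score deciles that held EM-only regions, it was below that of EM peaks called at COT and EM, at EM and MM, or at all 3 stages. In the lowest-scoring decile it was 16.2% (14.4 to 18.1) of 1603 EM-only regions, against 29.1% (25.5 to 32.9) for COT and EM, 42.8% (40.4 to 45.2) for EM and MM and 65.4% (62.996 to 67.7) for all 3 stages. In decile 6 it was 28.1% (22.6 to 34.1) of 249 EM-only regions, against 52.7% (46.4 to 59.0) for COT and EM, 59.5% (56.9 to 62.0) for EM and MM and 84.5% (83.2 to 85.6) for all 3 stages. Intervals were apart from those of COT and EM in 5 of 8 deciles, from EM and MM in 7 of 8 and from all 3 stages in 8 of 8.

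Averaged over deciles with the weights of the EM-only regions, EM and MM peaks had a share of 49.0%, which put EM-only regions 29.5 points lower, a difference of −29.5 (−31.2 to −27.9). For COT and EM peaks the share was 34.5% and the difference −15.01. With width matched as well, the differences were −26.2 for EM and MM and −12.2 for COT and EM. The difference from EM and MM was smaller under reciprocal overlap, at −13.9 (−15.6 to −12.3), and with midpoints within 100 bp, at −17.3 (−18.8 to −15.9). A second stage with a peak thus went with more peptide peaks at the same EM score and width.

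**Figure D3:**
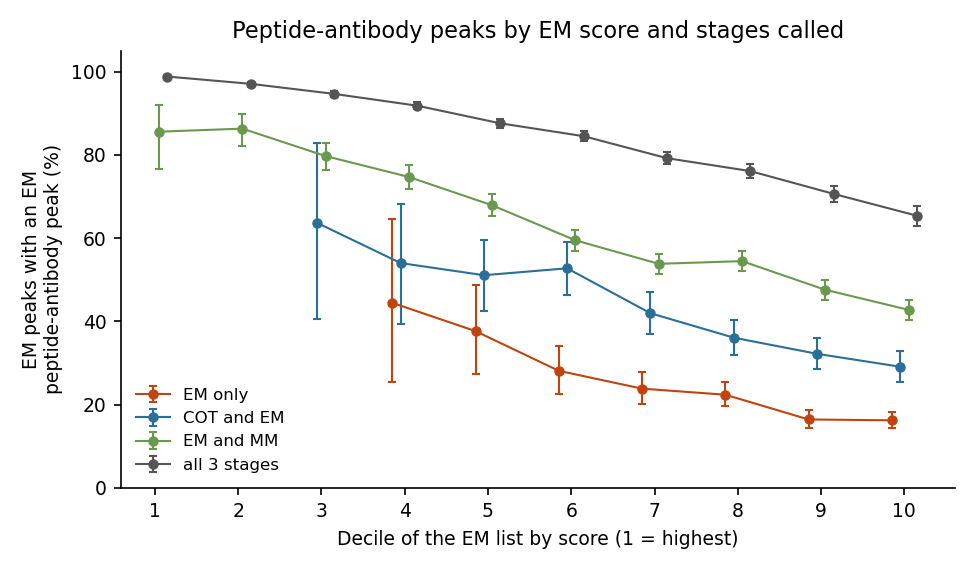
Share of EM peaks with an EM peptide-antibody peak (vertical axis, %) in each decile of the EM list by score (horizontal axis, 1 the highest), for peaks in regions called at EM only, at COT and EM, at EM and MM and at all 3 stages. Bars are exact 95% binomial intervals, and classes with under 20 peaks in a decile are not drawn. The EM-only points are the lowest in each decile drawn, at 44.4% in decile 4 and 16.2% in decile 10.

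Among the EM-only regions themselves, those with a peptide peak were wider and scored higher. Their median width was 200 bp with a peptide peak and 150 bp without, and their median EM score was 2.97 with and 2.90 without. Of the 118 EM-only regions in the higher-scoring 50% of the EM list, 47 had a peptide peak (39.8%, 30.9 to 49.3), against 830 of the 4385 in the lower-scoring 50% (18.9%, 17.8 to 20.1).

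The peptide peaks over EM-only regions were weak within their own list too. There were 877 such peaks, with a median score of 2.74, against 3.33 for the whole peptide list, and 433 of them (49.4%, 46.01 to 52.7) came from the lowest-scoring 20% of that list. Because all of these scores come from 1 list, classes can be set side by side. The median peptide score was 2.74 over EM-only, 2.61 over COT-only and 2.69 over MM-only regions, and the lowest-scoring 20% of the list gave 49.4% of the peaks over EM-only, 65.7% (62.9 to 68.4) of those over COT-only and 55.0% (53.001 to 57.1) of those over MM-only regions. Over regions called at all 3 stages the median was 3.70. Only 54 of the 877 peaks (6.16%) stood in the higher-scoring 50% of the peptide list.

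Where both antibodies gave a peak, the midpoints lay close together, within what overlap already requires. For the 871 EM-only regions that paired 1 to 1 with a peptide peak, the median distance was 50 bp, and in 502 (57.6%) midpoints were at most 50 bp apart. The peptide peak was wider than the region in 408 pairs, equally wide in 165 and narrower in 298. The order of strength was not shared within these pairs: Spearman's rho of the EM and peptide scores was −0.0140 across these 871 pairs of 2 lists. Their EM scores span a narrow range, with quartiles of 2.81 and 3.17 over the 877 regions with a peptide peak. The value therefore does not speak for the 2 lists as a whole.

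Coverage around the regions gave the local level. At the centre of EM-only regions the peptide list covered 15.2% of them, and 2 to 5 kb away it covered 4.57%, a ratio of 3.33. For COT-only regions the values were 11.4% at the centre and 4.40% at 2 to 5 kb, a ratio of 2.58, and for MM-only regions 16.7% and 3.93%, a ratio of 4.26. The peptide profile thus had a narrow summit over the EM-only regions and, at 200 to 400 bp, a dip to 3.92%. From 500 to 1000 bp it stood at 6.33%, above the level further out. The same shape was seen around the other single-stage regions. Around COT-only regions the peptide list covered 2.66% at 200 to 400 bp and 5.26% at 500 to 1000 bp. Around MM-only regions these values were 1.84% and 4.86%. For EM-only regions, COT and MM coverage is 0 at the centre by the rule. From 500 to 1000 bp it reached 5.67% for COT and 7.82% for MM, and at 2 to 5 kb it was 4.17% for COT and 5.78% for MM.

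**Figure D4:**
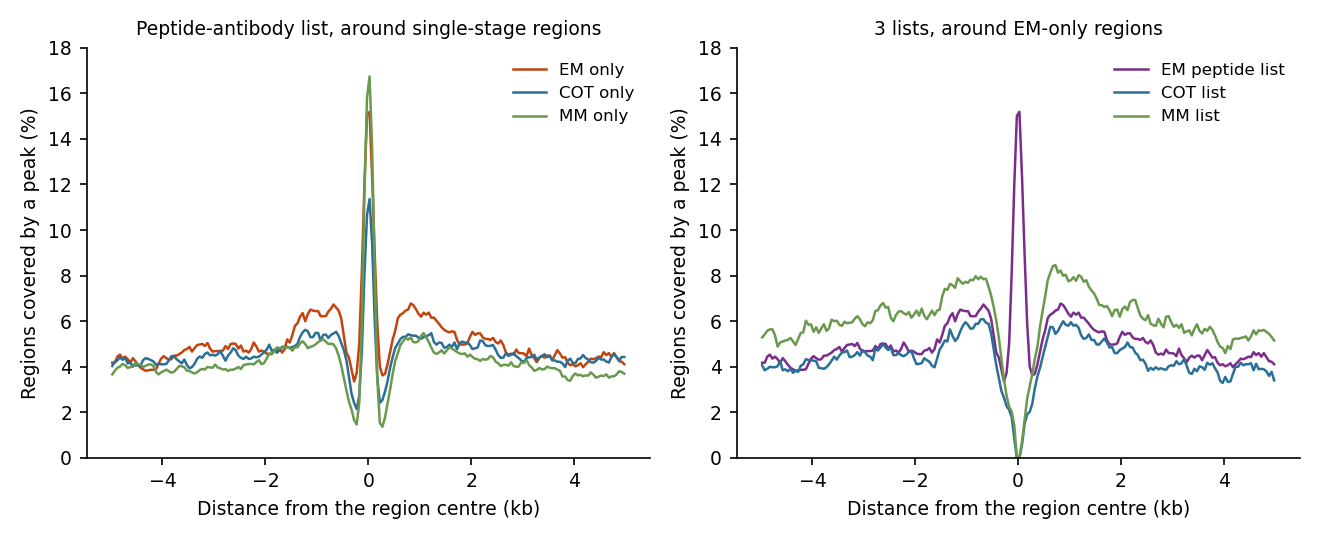
Percent of regions covered by a peak (vertical axes) in 50 bp steps at each distance from the region centre (horizontal axes, kb). Left, the peptide list around EM-only, COT-only and MM-only regions, with 15.2% at the centre of EM-only, 11.4% of COT-only and 16.7% of MM-only regions. Right, the peptide, COT and MM lists around EM-only regions, where COT and MM are 0 at the centre by construction.

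The gap to peaks of the other stages was measured for each EM-only region. The nearest COT or MM peak was a median of 1200 bp away, edge to edge. It adjoined the region with no base between in 226 cases (5.02%), lay within 200 bp in 667 (14.8%) and within 1 kb in 2057 (45.7%). The same measure is not given for other classes. On a broader measure, 42.1% of all merged regions had another merged region of any class within 1 kb. The nearest MM peak was a median of 1550 bp away and the nearest COT peak 2100 bp. The share with a peptide peak was 31.0% (25.01 to 37.4) in the 226 regions that adjoined a COT or MM peak, 21.3% (17.6 to 25.4) at gaps of 50 to 200 bp, 17.8% (15.9 to 19.96) at 250 to 1000 bp, 19.9% (18.04 to 21.9) at gaps above 1000 and up to 5000 bp and 16.9% (14.2 to 19.8) further out. It was thus highest in the adjoining regions. Peptide peaks that also touched a COT or MM peak were counted in these shares, which are not given without them. Their median width was 100 bp, against 150 bp in the 4 other gap classes.

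Some peptide peaks reached beyond the region to a neighbour. In 99 of the 877 EM-only regions with a peptide peak, that peak also touched a COT or MM peak. The other 778 (17.3% of all EM-only regions, 16.2 to 18.4) had a peptide peak that touched none, so that both antibodies gave a peak at EM where no other stage had one. Seen from the peptide list, 3592 of its peaks touched no COT or MM peak, and 891 of these (24.8%) had an EM anti-recombinant peak. Any EM peak counted here, also one in a region shared with another stage. The same share over the whole peptide list is not given here. Of the 3626 EM-only regions without a peptide peak, 75 adjoined one, 290 (8.00%) had one within 200 bp and 1186 (32.7%) within 1 kb. These near misses are not given for other classes. With overlapping peptide peaks included, 25.9% of EM-only, 19.7% of COT-only and 22.7% of MM-only regions had one within 200 bp.

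The edge of the rule was set by 50 bp. At 799 EM peaks the largest overlap with a COT or MM peak was a single step of 50 bp, which kept them out. Their median width was 100 bp and their median score 2.83, against 100 bp and 2.84 for the 226 EM-only regions that adjoined such a peak. A peptide peak overlapped 33.4% (30.1 to 36.8) of the 799 and 31.0% (25.01 to 37.4) of the 226, intervals that overlap. The highest-scoring adjoining region, chromosome 18 at 51153201 to 51153450, stood next to a COT peak, as did chromosome 17 at 8719501 to 8719700, while chromosome 15 at 4847601 to 4847850 stood next to an MM peak. The next, on chromosome 19 at 49511751 to 49511950, also adjoined a COT peak, and none of the 4 had a peptide peak. Just outside the rule were EM peaks on chromosome 18 at 55759951 to 55760150, overlapped by a COT peak, and chromosome 16 at 5925601 to 5926000, overlapped by an MM peak. The other two, both overlapped by COT, were at 29467951 to 29468200 of chromosome 16 and at 43329601 to 43329850 of chromosome 3. Of these 4, the one at 5925601 had a peptide peak.

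EM-only regions had a neighbour within 1 kb more often than single-stage regions of the other stages, and about as often as regions called at COT and EM. Of them, 48.6% (47.2 to 50.1) had another region of any class within 1 kb, against 42.1% of all merged regions, 41.9% (40.8 to 42.95) of COT-only and 39.6% (38.7 to 40.4) of MM-only regions. Regions called at COT and EM had 47.1% (45.1 to 49.03), an interval that overlaps the EM-only one. With the higher-scoring 50% of each list the shares were 26.1% (24.4 to 27.8) of EM-only, 24.6% (23.3 to 25.8) of COT-only, 22.4% (21.4 to 23.4) of MM-only and 24.7% of all regions, so that the EM-only interval overlapped that of COT-only regions and held the value of all. Within 200 bp the shares were 16.8% (15.7 to 17.9) for EM-only, 12.3% (11.6 to 13.1) for COT-only and 9.52% (8.999 to 10.1) for MM-only regions, and 10.1% for all. The nearest neighbour was a region called at all 3 stages for 1949 EM-only regions (43.3%), against 45.7% for merged regions in general, and another EM-only region for 293 (6.51% against 6.10%). Neighbours were thus of about the same classes as elsewhere. Isolated cases were few, with 101 EM-only regions (2.24%) more than 20 kb from any other.

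The EM-only regions with the highest EM scores serve as examples of single sites. Of those with a peptide peak, the first lay on chromosome 15 at 8267801 to 8268100, was 300 bp wide and ranked 11249 at EM. Its peptide peak, at 8267901 to 8268150, ranked 34675 of 49566 in the peptide list, and an MM peak began 50 bp away. The next, on chromosome 13 at 39342901 to 39343250, ranked 14245 at EM and 34433 in the peptide list, 750 bp from the nearest MM peak. Both sites were in the upper part of the EM list, which follows from choosing them by EM score. Both were in the lower part of the peptide list. This holds little information, since only 6.16% of the 877 peptide peaks over EM-only regions stood in its higher-scoring 50%. On chromosome 19 the region at 42433701 to 42434200 ranked 14831 at EM and 35698 in the peptide list. It was 1 of 8 EM-only regions of 500 bp, a width that only the 2 of 550 bp exceeded. Its nearest COT and MM peaks were each 1550 bp away. The region on chromosome 14 at 44898451 to 44898800 ranked 17316 and 35006 in these lists, and its nearest COT and MM peaks were 2000 and 2150 bp away.

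The site that stood furthest from other stages among these 6 was on chromosome 8 at 15637751 to 15638050. It ranked 18732 at EM and 26092 in the peptide list, and its nearest MM peak was 9150 bp and its nearest COT peak 12250 bp away. The sixth, on chromosome 13 at 13781501 to 13781800, ranked 18937 at EM but 45440 in the peptide list.

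Without a peptide peak, the highest-scoring EM-only region was on chromosome 13 at 2536351 to 2536750, 400 bp wide and ranked 11967. Peaks of all 3 other lists lay within 250 bp of it: MM at 200 bp, COT at 250 bp and the peptide list at 250 bp. The second, on chromosome 8 at 3868951 to 3869300 and ranked 15376, was 8150 bp from the nearest peptide peak, 4150 bp from MM and 8400 bp from COT. The third, on chromosome 12 at 39152401 to 39152700, had COT, MM and peptide peaks within 400 bp. The fourth, on chromosome 3 at 9553101 to 9553350, was 200 bp from both an MM and a peptide peak but 24700 bp from COT. The last 2 lay on chromosome 15 at 12758101 to 12758400 and at 12643251 to 12643550, where the nearest peptide peaks were 15600 and 16350 bp away. Regions without a peptide peak were thus found both beside peaks of the other lists and far from them.

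The widest EM-only regions were both 550 bp. The one on chromosome 13 at 41492451 to 41493000 had no peptide peak and ranked 28259, and the one on chromosome 15 at 2069051 to 2069600 had a peptide peak ranked 44261. The best-placed peptide peaks over EM-only regions lay over weak EM peaks. This holds little information, since 97.4% of all EM-only regions were in the lowest-scoring 50% of the EM list. On chromosome 19, the 100 bp region at 41295251 to 41295350, ranked 53974 at EM, overlapped the edge of the peptide peak ranked 504, at 41294201 to 41295300. On chromosome 17, the region at 5871651 to 5871750 lay within the peptide peak ranked 1641, and on chromosome 20 the region at 45902051 to 45902300 within the one ranked 4043. All 3 of these peptide peaks were 750 bp or wider and also touched a COT or MM peak.

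Along the chromosomes EM-only regions broadly followed the other LEC1 regions, but fewer lay in the centre than of MM-only regions. On the 20 chromosomes, 69.6% (68.2 to 70.9) of 4481 EM-only regions lay in the outer 20% at either end, against 68.3% of all merged regions. For MM-only regions this share was 66.5% (65.6 to 67.3), an interval apart from the EM-only one. The centre, from 25 to 75% of the length, held 20.4% (19.2 to 21.6) of EM-only, 22.1% (21.2 to 23.1) of COT-only and 23.4% (22.7 to 24.2) of MM-only regions, and 21.8% of all. There the EM-only interval overlapped that of COT-only regions, lay wholly below that of MM-only regions and did not hold the value of all. The middle 20% of the length held 261 EM-only regions (5.82%), against 6.08% of all regions, and the terminal 500 kb held 153 (3.41%), against 3.55%. A peptide peak was found for 20.04% (18.6 to 21.5) of EM-only regions in the outer 20%, 17.7% (15.3 to 20.4) in the centre and 14.4% (9.24 to 20.96) in the terminal 500 kb, intervals that overlap.

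**Figure D5:**
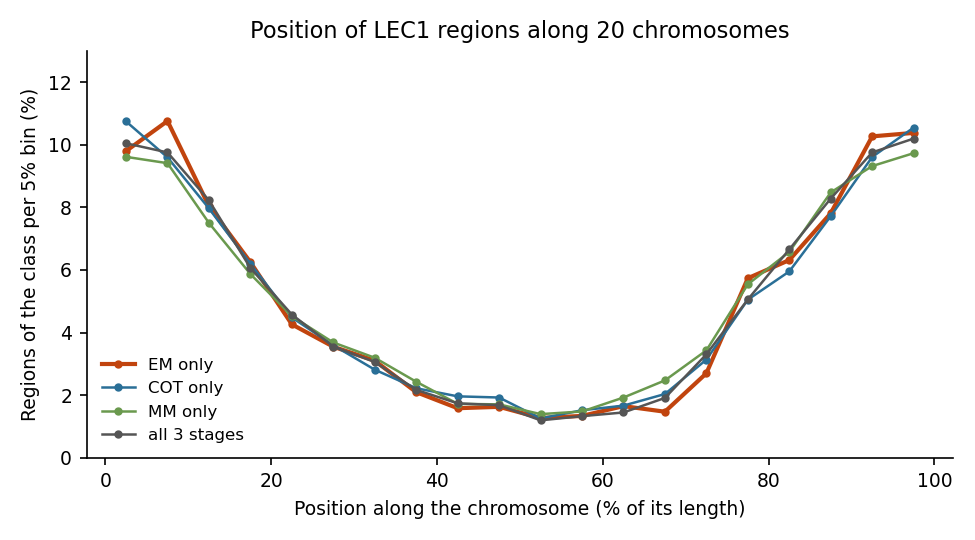
Share of each class per 5% of chromosome length (vertical axis, %) against position along the chromosome (horizontal axis, % of length), pooled over 20 chromosomes, for EM-only, COT-only, MM-only and all-stage regions. The 4 lines have the same general shape, and the EM-only line stands at 10.8% from 5 to 10% and 1.27% from 50 to 55% of the length.

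Chromosome 13 had the most EM-only regions, 314, and the highest density, 6.85 per Mb. Chromosome 16 had the fewest, 145, and the lowest density, 3.83 per Mb. These chromosomes also had the most and the fewest merged regions, 5701 and 2735. EM-only regions were 5.51% and 5.30% of these, against 5.72% of all merged regions. As a share of the EM peaks of a chromosome they ran from 6.98% on chromosome 6 to 9.38% on chromosome 7. The share with a peptide peak ran from 15.2% (10.8 to 20.5) on chromosome 10 to 25.8% (19.7 to 32.6) on chromosome 20, with overlapping intervals, and was 16.6% (12.6 to 21.1) on chromosome 13. A further 22 EM-only regions lay on 10 scaffolds, and 4 of them had a peptide peak.

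EM-only regions were spread over most of the genome. They were present in 714 of the 947 windows of 1 Mb that held an EM peak, with a median of 3 per window. The fullest window, on chromosome 11 at 3000001 to 4000000, held 22 of them among 193 EM peaks (11.4%), 6 with a peptide peak. Next came chromosome 14 at 4000001 to 5000000, with 21 among 125 EM peaks (16.8%). The window from 3 to 4 Mb of chromosome 6 held 10. The nearest other EM-only region was a median of 37550 bp away, and 197 (4.37%) had another within 1 kb.

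The tightest run of 3 spanned 1650 bp on chromosome 7. It was made up of regions at 6229001 to 6229100, 6229551 to 6229800 and 6230351 to 6230650, with EM ranks 39964, 33324 and 34512. No COT or MM peak lay within 2000 bp of any of them, the nearest being 2100 bp away. The last of the 3 had a peptide peak, ranked 27016 of the peptide list, and the nearest peptide peaks of the other two were 1150 and 450 bp away.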

How the data were processed

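The deposited data are 4 BED peak lists in which each peak carries a score computed by the authors, on a scale that no source used here states. The submitters' processing notes list Bowtie 0.12.7 and SAMtools 0.1.19. How peaks were called, at which threshold, and whether replicates were pooled is not stated there. The end column was taken as inclusive, which puts all peaks on a 50 bp grid. Per the labels' protocols, embryos were crosslinked with 1% formaldehyde (10 minutes) and sonicated to 100 to 500 bp before incubation with 3 ug of antibody, and 15 PCR cycles enriched the libraries.

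Overlaps, gaps and shares were computed in Python 3.11.15 with numpy 2.4.6, pandas 2.3.3 and scipy 1.17.1, and the code was tested on simulated peak lists with known classes. Chromosome length is the last peak end in any list. A region counted as found by the peptide antibody when 1 bp overlapped. Regions named are the 6 highest-scoring with and the 6 without a peptide peak, the 3 widest, the 3 with the best peptide rank, 4 on either side of the rule's edge and the tightest run of 3. Of the 3 widest, the third was 1 of 8 regions tied at 500 bp. The region class and these choices were made with earlier results of these data known. The gap classes, the coverage profile and the comparison at equal width were chosen after the values had been seen. RefSeq genes of another assembly were not used.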

Additional observations from a re-analysis of the deposited data

How the results depend on the processing

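Of 66 alternative values for 7 results, 33 stayed within the main value's counting interval (for the number of regions, within 1.5 times) and 33 did not. None with an interval apart from 0 changed sign. The number of EM-only regions was 8893 with a reciprocal overlap of at least 50%, 2360 where gaps of up to 1000 bp counted as shared, 2702 with the higher-scoring 50% of each list, 118 with that of EM alone and 1623 at widths from 200 bp. The share with a peptide peak was 38.5, 39.8 and 28.1% under the reciprocal overlap, the higher-scoring 50% of EM and the 200 bp width, and 37.4% with midpoints within 100 bp. It was 30.9% with lists of equal length (49566 peaks), 16.3% where the peptide peak had to cover 50% of the region, 25.9% with peptide peaks within 200 bp and 17.3% without peptide peaks that touched a COT or MM peak. Stricter sharing rules move regions with a partner into the class by construction. EM-only minus COT-only regions gave 2.90 (reciprocal), 10.7 (midpoints), 8.47 (equal length), 20.4 (higher-scoring 50% of EM) and 7.85 points (200 bp width).

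EM-only minus MM-only regions gave 8.90 (reciprocal), 10.6 (midpoints), 3.18 (peptide within 200 bp), 2.98 (200 bp width) and 3.83 points (equal widths, without an interval). With the higher-scoring 50% of EM it was 6.81 points (−1.59 to 15.9) from 118 EM-only regions, an interval that spans 0. In 7 other alternatives it ran from −1.03 to 0.276 points. The near-equality of the 2 classes thus held under some of these choices and not under others. Set against EM and MM peaks of the same score decile, the difference was −13.9 (reciprocal), −17.3 (midpoints), −27.2 (equal length), −27.8 (gap of 1000 bp) and −26.2 points (same width). The share within 1 kb of another region was 38.3% where gaps of up to 200 bp counted as shared, 41.8% at equal length and 26.1% with the higher-scoring 50%, and the chromosome centre then held 21.7%. For the other changes the cause was not tested. Neighbours under reciprocal overlap were not run, since regions then overlap. No paired analysis was possible because each stage and antibody has 1 list for both replicates, and for the same reason no replicate could be left out. The unknown depth limits every share.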
